A study of Mus musculus with 605 samples.

Results

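The comparison covered bulge stem cells of nevus-bearing (mutant) and wild-type mouse skin at postnatal day 56 (P56), as single-cell transcriptomes on 1 plate per genotype. Every deposited cell of both plates was considered, and a cell was kept when its transcripts-per-million (TPM) values summed to at least 750000, at most 20% of them came from mitochondrial genes, and between 2000 and 7000 genes were above 0. This left 89 of 94 mutant and 83 of 92 wild-type cells, 172 of the 605 cells of the series. The labels give the genotypes as Mut and WT. For bulge cells the study describes mutant mice that were Tyr-Nras Q61K;K14-H2B-GFP, in which the tyrosinase promoter drives activated Nras in melanocytes and not in the follicle epithelium, and control mice that carried K14-H2B-GFP alone, so that both shared the nuclear reporter under the keratin 14 promoter. Cells came from dorsal skin and were captured on Fluidigm C1 chips. The study gives a sort of GFP+ CD34+ P-cadherin-low cells where it describes bulk samples from these mice, and no separate sort was found stated for the plates of single cells. Wild-type follicles are in telogen at this age. The labels name no animal, so a plate counted as 1 sample, cells were not replicates, and no difference below carries a test. Genotype and plate cannot be told apart. Another plate, of 84 kept wild-type cells from P30, when follicles are in anagen, is quoted beside single genes and some lists.

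The bulge is the permanent part of the hair follicle that holds its stem cells, and keratins 5, 14 and 15 with surface CD34 are its usual marks in the mouse. These cells rest through telogen and are called into the cycle by signals from the dermal papilla and from other cells of the skin. A resting stem cell keeps metabolism and protein turnover low, is anchored to a basement membrane that it partly makes itself, and carries the receptors through which cytokines, WNTs, BMPs and FGFs set its state.

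The transcripts of bulge markers and of the proteins in that sort were checked first. Krt5 was at a TPM of 1 or more, the level called detected here, in 98.9% of cells on the mutant plate and 97.6% on the wild-type plate, and Krt15 in 95.5% and 98.8%. Krt14 was detected in 73.03% of mutant cells (95% Clopper-Pearson interval 62.6 to 81.9%) and in 96.4% of wild-type cells (89.8 to 99.2%). Intervals here cover counting error only. Cd34 transcript, in contrast, was detected in 41 mutant cells (46.1%, 35.4 to 56.96%) and in 8 wild-type cells (9.64%, 4.25 to 18.1%), and in 11.9% of the P30 cells. Cdh3, which encodes P-cadherin, was detected in 89.9% (81.7 to 95.3%) and 69.9% (58.8 to 79.5%) of P56 cells. Both plates thus held the transcripts of follicle or basal keratinocytes. Cd34 transcript was not detected in most cells of either plate, and was missing from a larger share of the wild-type cells.

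**Figure D1:**
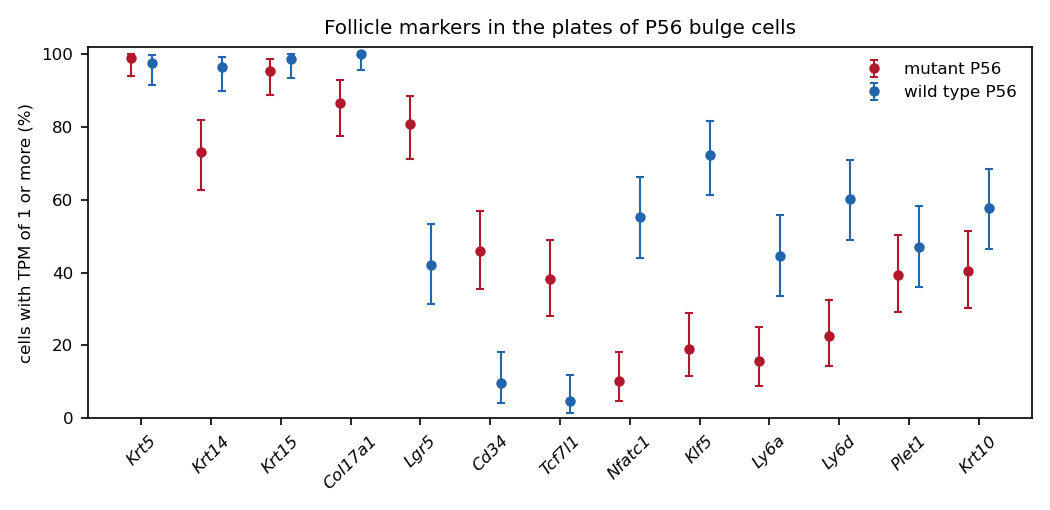
Share of the 89 mutant (red) and 83 wild-type (blue) P56 cells in which each marker was at a TPM of 1 or more, with bars for the 95% Clopper-Pearson interval, which covers only counting error. Cd34, Lgr5 and Tcf7l1 were detected in more mutant cells and Ly6a, Ly6d, Klf5 and Nfatc1 in more wild-type cells, while Krt5 and Krt15 were near 100% in both plates.

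Other bulge markers went both ways. Lgr5, a receptor of follicle stem cells, was detected in 80.9% of cells on the mutant plate and 42.2% on the wild-type plate, and Tcf7l1, a repressor of WNT targets in the bulge, in 38.2% and 4.82%. Nfatc1, a factor of resting bulge cells, was detected in 10.1% and 55.4%, and the hemidesmosomal collagen Col17a1 had a difference of -1.49 and Krt14 of -2.98 on the log2 scale defined below. The surface proteins Ly6a and Ly6d, known from the upper follicle and interfollicular epidermis, were detected in 15.7% and 22.5% of mutant cells against 44.6% and 60.2% of wild-type cells. At least 1 of the pair was present in 21 mutant cells (23.6%, 15.2 to 33.8%) and in 53 wild-type cells (63.9%, 52.6 to 74.1%). Klf5, a factor of proliferating and differentiating keratinocytes, was detected in 19.1% of cells on the mutant plate and 72.3% on the wild-type plate. Of the list of 15 markers of interfollicular and differentiating keratinocytes, the summed TPM ran from 0 to 34824 in mutant cells (median 99.8) and from 0.48 to 32951 in wild-type cells (median 1538), with Flg and Flg2 at 0 in both plates. Whether the plates held other mixtures of cells, or like cells with other transcripts, cannot be told apart here. Over the mutant cells Ly6a and Ly6d had Spearman coefficients of 0.60 and 0.54 with the immediate early mean described below. The values of Ly6a and Ly6d are given again wherever a result moved with them, and their part in the differences was otherwise not tested.

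The median summed TPM of melanocyte, fibroblast, endothelial and T and NK cell markers was 0 on both plates and that of 13 myeloid markers was 1.03 in mutant and 1.76 in wild-type cells, but single cells held more. Myeloid markers reached 11639 TPM on the mutant plate and 15431 TPM on the wild-type plate, with 3 and 6 cells over 1000 TPM. Melanocyte markers reached 260 and 15636 TPM, with 0 and 4 cells over 1000 TPM, and Tyr, Kit, Sox10 and Slc45a2 were at 0 in every mutant cell. T and NK cell markers reached 320 and 7531 TPM, with 0 and 3 such cells, and fibroblast markers 2447 and 1007 TPM, with 1 and 1. The part of these cells in the differences was not tested. Xist was detected in 86.5% of cells on the mutant plate and 91.6% on the wild-type plate and the Y-linked genes Ddx3y, Uty, Kdm5d and Eif2s3y in none of either plate. Kept mutant cells had 2596 to 6670 genes above 0 (median 4425) and wild-type cells 2205 to 6816 (median 4271), while the median mitochondrial share was 6.85% and 4.50%. The P30 cells held fewer genes above 0, at 2336 to 5650 (median 3191.5), with a median mitochondrial share of 8.40%. The part of this in values quoted from the P30 plate was not tested. For lists set against P30, no share over all genes is given. Read depth is unknown from TPM values. A predicted gene noticed after its values were seen, Gm10260, stood at a mean of 1299 TPM in all 83 wild-type P56 cells, against 0.721 TPM in mutant and 0.952 TPM in P30 cells. This transcript therefore differed between plates of the same genotype. Whether the wild-type P56 plate was aligned or quantified with other settings was not tested, and any such difference would enter every mutant minus wild-type value below.

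Across genes, TPM values of each cell were scaled to a sum of 10000 and log2-transformed after adding 1, and the mean of the wild-type cells was subtracted from that of the mutant cells. A difference of 1 on this scale is a doubling for abundant genes and understates the change of scarce ones. Of 7561 genes found in 25% or more of the cells on one plate or the other, 4352 were higher in mutant cells, and the median difference was 0.02. Mutant cells were higher by 1 or more for 47 genes (0.622% of those measured) and lower by 1 or more for 74 genes (0.979%). The connexin, immediate early, quiescence and cell cycle lists held 3 of the former and 16 of the latter, and the text below is about the rest. Just inside the limit stood Mfge8 at 1.002 and Hsp90aa1 at -1.01, and just outside it Oat at 0.9999 and Hspa1a at -0.999.

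**Figure D2:**
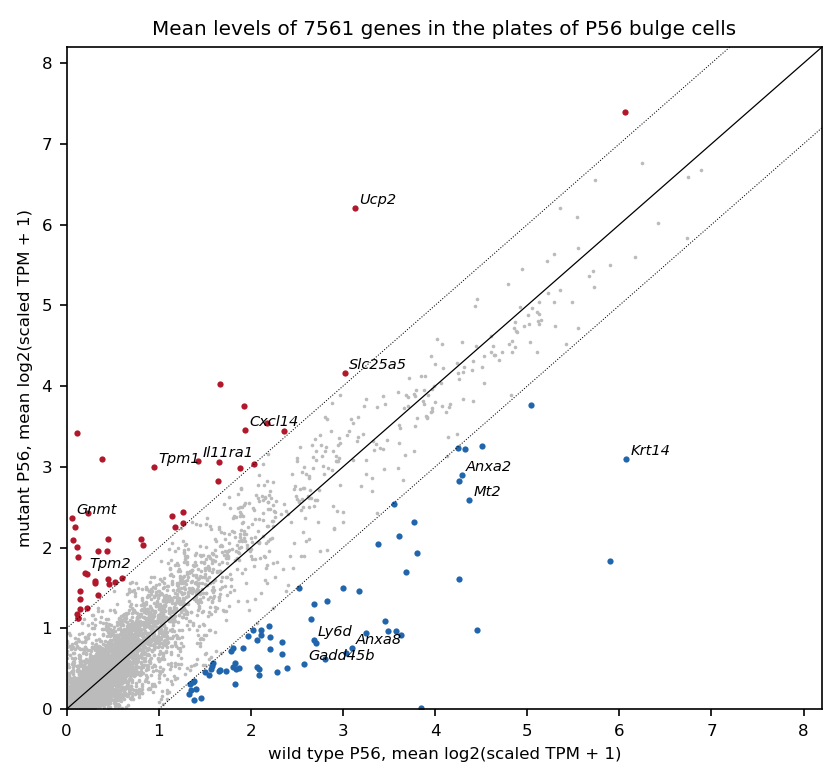
Mean log2(scaled TPM + 1) of 7561 genes in wild-type (horizontal) and mutant (vertical) P56 bulge cells, with genes higher by 1 or more in mutant cells in red, genes lower by 1 or more in blue, and dotted lines at a difference of 1 either way. Ucp2 and Gnmt lie far above the diagonal and Krt14 far below it. The 47 red and 74 blue points are a small share of the genes measured.

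Enzymes of the methionine cycle and of cysteine synthesis were higher in mutant cells. Methionine is activated by Mat2a to the methyl donor S-adenosylmethionine, Gnmt spends that donor on glycine, Ahcy clears the product, Sardh recovers glycine from sarcosine, and Cbs and Cth pass the sulfur on to cysteine. Gnmt was detected in 64 mutant and 3 wild-type cells, with a mutant range of 0 to 12721 TPM (median 310.4). Its wild-type maximum was 305.9 TPM, below 45 of the 89 mutant cells once cells were scaled. Cbs averaged 402 TPM on the mutant plate and 49.9 TPM on the wild-type plate, a difference of 1.66 (SD over cells 1.06 and 0.68). Mat2a averaged 629 and 167 TPM, and Sardh 199.9 and 30.8 TPM, with differences of 1.04 and 0.89. Ahcy was detected in 75.3% of cells on the mutant plate and 42.2% on the wild-type plate, and Cth in 40.4% and 3.61%. Each of these 6 genes was thus higher in the mutant plate, and at P30 wild-type Cbs and Mat2a stood at 56.9 and 164.5 TPM, close to P56 wild type.

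The whole list of 34 one-carbon, serine and methionine genes was less even than its leading members. Of 23 measured, 18 were higher and 5 lower, with a median difference of 0.13 against 0.02 over all genes, and 3 (Gnmt, Cbs and Mat2a) were higher by 1 or more. Odc1, which opens polyamine synthesis, had a difference of -0.34. Among cells of the mutant plate the 5 of the 40 leading higher genes most like Gnmt were Cbs, Bgn, Ucp2, Col18a1 and Angptl4, with Spearman coefficients of 0.71, 0.69, 0.66, 0.66 and 0.64 over 89 cells that share 1 plate. The likeness describes which transcripts occurred in the same cells and carries no test. Among the follicle markers, Gnmt had coefficients of 0.57 with Lgr5, 0.42 with Cd34 and 0.37 with Tcf7l1. With Ly6d, Klf5, Ly6a and Nfatc1 they were -0.56, -0.55, -0.49 and -0.42, and with Krt14 -0.06. The part of different kinds of cells in this likeness was not tested.

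Both subunits of the enzyme that opens glutathione synthesis were higher too. Glutamate-cysteine ligase, the first enzyme of glutathione synthesis, is made of the catalytic subunit Gclc and the modifier Gclm. Gclm was detected in 79 mutant and 33 wild-type cells at means of 266 and 28.8 TPM, a difference of 1.25, and 34 mutant cells exceeded every wild-type cell. Gclc was detected in 67.4% and 12.05% of cells. Ggt1, which breaks down extracellular glutathione, was detected in 47 mutant cells and in 0 of 83 wild-type cells, so that up to 3.61% is allowed. Prdx6, a peroxidase that uses glutathione, went the other way at 232 TPM on the mutant plate and 542 TPM on the wild-type plate, a difference of -1.02. Of 35 measured genes of glutathione and redox defence, 21 were higher and 14 lower, with a median of 0.12. This share was near the 57.6% of all genes that were higher.

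The promoter of Gclm is shown because the antioxidant response element, the site of the NRF2 family, is the textbook control of this gene. The window is the 250 bases before the RefSeq start at chr3:122245307-122245556 (GRCm38.p6, plus strand), 5′ to 3′, and capitals mark the letters TGACNNNGC, found here on the opposite strand.
Gclm: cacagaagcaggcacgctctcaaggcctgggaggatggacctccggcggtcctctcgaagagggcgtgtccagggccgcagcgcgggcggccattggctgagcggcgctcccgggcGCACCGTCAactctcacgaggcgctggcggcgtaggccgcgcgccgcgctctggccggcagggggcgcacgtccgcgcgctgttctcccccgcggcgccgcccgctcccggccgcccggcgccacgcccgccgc
On either strand these letters were held by 4 of 35 leading higher genes with a RefSeq promoter (11.4%), by 5 of 36 leading lower genes (13.9%), by 14.7% of 5805 measured genes and by 10.2% of all 32851 promoters. The share among the leading higher genes was below that among the measured genes.

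Among 16 measured amino acid transporters 10 were higher and 6 lower (62.5% higher against 57.6% of all genes), with a median of 0.16, so the list as a whole stood near all genes. Slc7a8 and Slc3a2 are the light and heavy chain of 1 exchanger of large neutral amino acids, and both were higher, Slc7a8 by 2.02 and Slc3a2 by 1.84. Slc7a8 ranged from 0 to 1572 TPM in mutant cells (median 361) and reached 129.9 TPM in wild-type cells, with 62 of 89 mutant cells above every wild-type cell. The glutamate carrier Slc1a3 was detected in 65.2% of cells on the mutant plate and 8.43% on the wild-type plate, and the arginine carrier Slc7a1 in 84.3% and 34.9%. No transporter on this list was lower by 1 or more. Under the wider filters, in which genes detected in few cells enter, the median of the list was near 0.

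Genes of metal homeostasis differed both ways. The zinc importers Slc39a10, Slc39a6 and Slc39a14 were detected in 85.4%, 82.02% and 61.8% of mutant cells and in 20.5%, 31.3% and 3.61% of wild-type cells. Slc39a10 averaged 800 TPM in mutant cells, 7.05 TPM in wild-type P56 cells and 34.1 TPM at P30. The metallothioneins Mt2 and Mt1, which bind zinc and are induced by it, had differences of -1.78 and -0.83. Mt2 was detected in 59.6% of cells on the mutant plate and 97.6% on the wild-type plate, although its mutant maximum of 20981 TPM exceeded the wild-type maximum of 11640 TPM, so the ranges overlapped. The ferritin chains Fth1 and Ftl1 had differences of -0.93 and 0.45. Over all 21 measured genes of metal homeostasis 12 were higher and 9 lower, and the median was 0.02, equal to that of all genes.

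**Figure D3:**
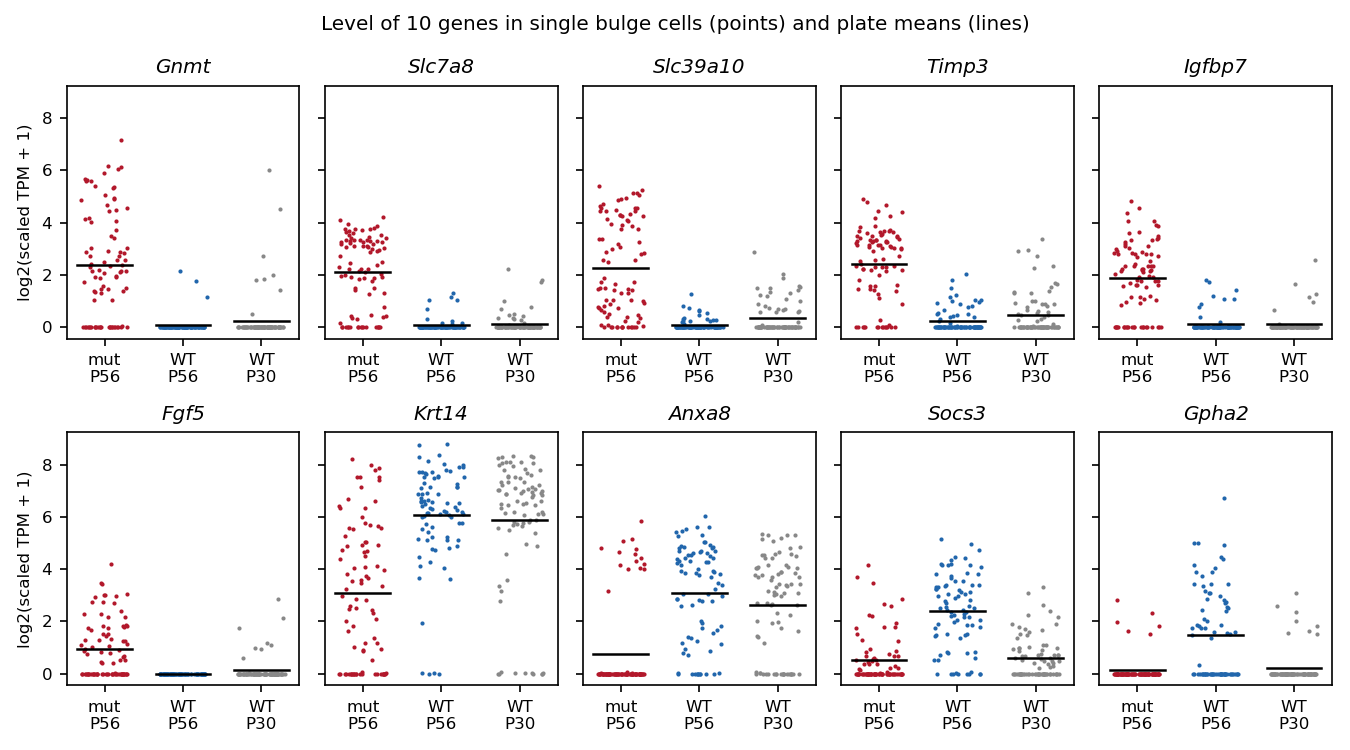
Level of 10 genes in each kept cell (points) and their plate means (lines) on the log2(scaled TPM + 1) scale for mutant P56, wild-type P56 and wild-type P30 bulge cells. Gnmt, Slc7a8, Slc39a10, Timp3, Igfbp7 and Fgf5 lay near 0 in most wild-type cells and spread widely in mutant cells, while Krt14, Anxa8, Socs3 and Gpha2 were lower in mutant cells.

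By count, genes of the contractile actin cytoskeleton had the most members higher by 1 or more. They were 6 of 45 measured, beside 3 of 23 one-carbon genes and 2 of 16 amino acid transporters. Tropomyosins line the actin filament, Myl9 is a light chain of non-muscle and smooth muscle myosin, calponin Cnn3 and smoothelin Smtn bind actin in contractile cells, and Pdlim7 and Fblim1 are LIM proteins of stress fibers and focal adhesions. Tpm2 averaged 289 TPM on the mutant plate and 17.8 TPM on the wild-type plate, a difference of 1.49, and was detected in 89.9% and 24.1% of cells. Myl9 averaged 453 and 33.2 TPM and Cnn3 244.9 and 18.8 TPM. Smtn reached 102.6 TPM at most in wild-type cells and 52 mutant cells exceeded all of them. Fblim1 was detected in 63 mutant cells and in 1 wild-type cell, where it was at 2.93 TPM, and Specc1, an actin-binding protein, in 56 and 2 cells. Smooth muscle actin Acta2 was detected in 24 mutant and no wild-type P56 cells. Wild-type P30 cells lay between for these genes, with Tpm2 at 210.3 TPM, Cnn3 at 89.1 TPM and Smtn at 45.1 TPM.

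Of 45 measured genes of this list, 32 were higher and 13 lower, against 57.6% higher over all genes. Of the 45, 6 were higher by 1 or more (0.622% over all genes), and the median was 0.30 against 0.02. The exception past 1 was Tmsb4x, thymosin beta 4, which sequesters actin monomers, at 928 TPM on the mutant plate and 2481 TPM on the wild-type plate. The median stayed between 0.25 and 0.50 under all 13 alternatives run on the lists. The median and the count of higher members held when the cells were matched on immediate early genes, at 0.29 with 32 of 43 higher, and in cells without Ly6a or Ly6d, at 0.35 with 33 of 45.

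The promoter of Myl9 is shown because serum response factor controls contractile genes through the CArG box. It is the 250 bases before the start at chr2:156775214-156775463 (RefSeq, GRCm38.p6, plus strand), with the CArG box in capitals.
Myl9: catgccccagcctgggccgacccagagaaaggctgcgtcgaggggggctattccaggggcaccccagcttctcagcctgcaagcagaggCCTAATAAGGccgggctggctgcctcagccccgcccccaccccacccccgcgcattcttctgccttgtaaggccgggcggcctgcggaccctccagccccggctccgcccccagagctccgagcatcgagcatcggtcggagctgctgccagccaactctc
A CArG box on either strand was held by 2 of the 35 leading higher genes (Myl9 and Cbr2), by 0 of 36 leading lower genes by 1.55% of the measured genes and by 1.47% of all promoters. A match describes the letters in a window and not a site in use.

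Among matrix and basement membrane genes, some components were higher by a large amount while the list was near all genes. Biglycan (Bgn) and the metalloprotease inhibitor Timp3, which is itself bound to matrix, were detected in 83.1% and 84.3% of mutant cells against 13.3% and 30.1% of wild-type cells. Col18a1, a basement membrane collagen and outer bulge gene, averaged 191 and 30.0 TPM with 42 mutant cells above every wild-type cell. Col4a1, the type IV collagen of all basement membranes, averaged 89.6 and 6.50 TPM, and laminin Lamb1 77.2 and 9.002 TPM. Tenascin C (Tnc) was detected in 73.03% and 10.8% of cells, and Fndc1 in 55 mutant cells and 1 wild-type cell. Of 30 measured genes 19 were higher and 11 lower (63.3% higher against 57.6% of all genes) with a median of 0.09, which was -0.02 among cells matched on immediate early genes and -0.02 among cells with an immediate early mean under 1.5.

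Secreted factors and their receptors were among the leading genes. Fgf5, the FGF that ends anagen, was detected in 49 of 89 mutant cells at 0 to 1537 TPM, in 0 of 83 wild-type P56 cells, which allows up to 3.61%, and in 9.52% of P30 cells. The insulin-like growth factor binding proteins Igfbp7 and Igfbp4 averaged 409 and 453 TPM in mutant cells and 12.9 and 49.1 TPM in wild-type cells. The chemokine Cxcl14 averaged 1333 and 352 TPM and the lipase inhibitor Angptl4 415 and 63.99 TPM. Il11ra1, the receptor subunit of interleukin 11, averaged 1079 TPM on the mutant plate and 207 TPM on the wild-type plate. The difference in Il11ra1 was 1.64 over all cells and 0.11 among cells matched on immediate early genes, the smallest of the 40 leading higher genes there. Porcn, the acyltransferase that every WNT ligand needs for secretion, was detected in 58.4% of mutant, 10.8% of wild-type P56 and 4.76% of P30 cells. The WNT receptor Fzd1 was detected in 67.4% and 20.5% of P56 cells, while WNT ligands Wnt10a, Wnt3 and Wnt7b had differences of -0.51, -0.37 and -0.26. Across 30 measured WNT ligands, receptors and targets, 15 were higher and 15 lower.

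Hedgehog, Notch, BMP and TGF-beta lists had medians between -0.04 and 0.04. Within them the hedgehog receptor and target Ptch1 was detected in 55.1% of cells on the mutant plate and 19.3% on the wild-type plate and Gli1 in 35.96% and 19.3%. Follistatin-like Fstl1 averaged 160.2 and 18.2 TPM, and Tgfbi, a secreted target of TGF-beta, 85.7 and 323 TPM with a difference of -1.33. The EGF receptor Egfr was higher by 0.38 and its ligand Hbegf lower by 1.04. Among follicle transcription factors, Vdr, Cux1 and Dlx3 had differences of 1.30, 1.15 and 0.79 and Klf5 and Ovol1 of -0.82 and -0.80, while 22 of the 45 measured were higher.

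The study asks about osteopontin from nevus melanocytes acting through CD44, and the genes of that axis were read in the receiving cells. Cd44 averaged 67.4 TPM on the mutant plate and 58.4 TPM on the wild-type plate and was detected in 77.5% and 78.3%, a difference of 0.06. Spp1, osteopontin itself, was detected in 0 of 89 and 0 of 83 cells, which allows shares of up to 3.37% and 3.61%. The integrin subunit Itgb1 was higher by 0.52 and Itgav stood at -0.08, while Itgb3 and Itga9 were detected in no cell of either P56 plate. Moesin (Msn), which ties CD44 to actin, averaged 240.8 and 49.7 TPM, and its relative ezrin (Ezr) 109.7 and 203.8 TPM. The sheddases Adam10, Adam17 and Mmp14 had differences of 0.15, -0.002 and 0.44. Mmp9 was detected in 1 cell of each plate. The study reports Mmp9, which it names as a direct target of CD44 signalling, among the most upregulated genes of mutant bulge cells in bulk samples. Those bulk samples were not compared with these plates of single cells. The part of sensitivity in the low detection of Mmp9 was not tested. Of the list's 32 genes 20 could be measured, 11 of them higher, with a median of 0.01.

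Protein turnover and respiration differed by small amounts in many genes. The proteasome degrades ubiquitinated proteins, and of its 34 measured subunits and assembly genes 31 were higher in mutant cells with a median of 0.35, against 0.02 and 57.6% higher over all genes. None was higher by 1 or more. Psmb3, a core subunit, averaged 546 and 269 TPM (difference 0.86), Psma1 485 and 295 TPM (0.72) and the base ATPase Psmc4 259 and 132 TPM (0.62). The mean over the list in single cells was 1.72 ± 0.28 in mutant and 1.39 ± 0.23 in wild-type cells (SD over cells, log2 scale), so the plates overlapped cell by cell. Between 25 and 33 members were higher in every alternative, and the median was 0.15 among cells matched on immediate early genes and 0.51 in cells without Ly6a or Ly6d. In the mutant plate the list mean was correlated with the number of genes detected in a cell (rho 0.67 over 89 cells), and that number had medians of 4425 and 4271 on the plates. Against the P30 plate, whose cells had a median of 3191.5 genes above 0, 20 of the 34 were higher in mutant cells, with a median of 0.04.

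The immunoproteasome went the other way. Psmb8 and Psmb9, interferon-induced subunits that replace constitutive ones, averaged 97.8 and 47.2 TPM in mutant cells and 355 and 131 TPM in wild-type cells, with differences of -1.02 and -0.48. They belong to the list of MHC class I presentation, in which 14 of 15 genes were lower with a median of -0.20, among them B2m (-0.68), H2-D1 (-0.77) and H2-T23 (-0.80). In that list 6.67% were higher, against 57.6% over all genes. The direction depended on which cells were compared, since the median was 0.12 among cells matched on immediate early genes and 0.19 among cells without Ly6a or Ly6d, where 11 of 14 genes were higher. H2 genes are near-identical copies, so their single values are uncertain.

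Of 74 nuclear-encoded respiratory chain genes 66 were higher, with a median of 0.29. Ndufa4, a subunit of the terminal oxidase, was the only member past 1, at 777 and 295 TPM. Cox5a averaged 535 and 263 TPM and Ndufa3 639.8 and 309 TPM. Slc25a5, which exchanges ATP for ADP across the inner membrane, averaged 1812 and 705 TPM with 38 mutant cells above every wild-type cell. Of 35 mitochondrial carriers and import genes 28 were higher (median 0.16), and of 29 genes of the tricarboxylic acid cycle 22 were higher (median 0.09). Among cells matched on immediate early genes 46 of the 74 respiratory genes were higher, with a median of 0.07. Against the P30 plate 51 of the 74 were higher, with a median of 0.18. Splicing factors, at 34 of 44 higher and a median of 0.14, leaned the same way. Lysosomal genes, at 28 of 41 higher (68.3%) and 0.08, stood nearer to all genes, at 57.6% and 0.02.

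**Figure D4:**
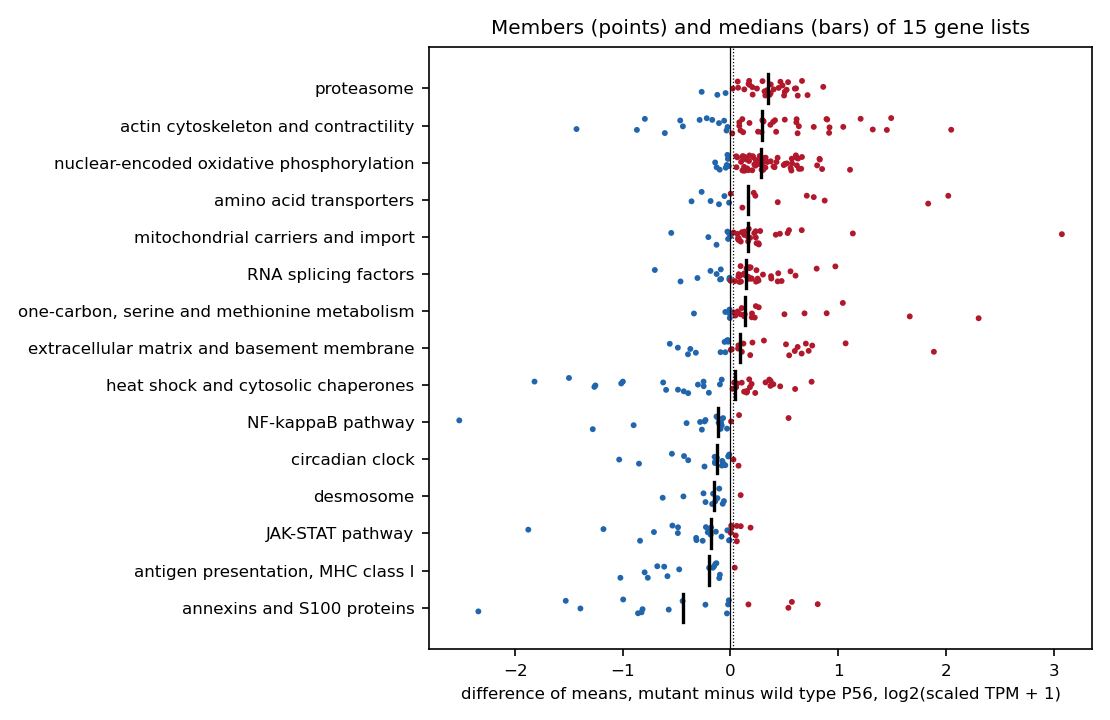
Difference of plate means, mutant minus wild type at P56, for the measured members of 15 gene lists (points, red above 0 and blue below) with each list's median (black bar). The dotted line is the median of all 7561 genes. Proteasome, actin and respiratory chain lists lay mostly to the right, and annexin, MHC class I and JAK-STAT lists mostly to the left.

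The genes that were lower in mutant cells included feedback regulators of cytokine signalling. Socs3, the inhibitor that STAT3 induces against its own pathway, ranged from 0 to 1528 TPM in mutant cells (median 0) and from 0 to 3071 TPM in wild-type cells (median 397), a difference of -1.88. The STAT-induced kinase Pim3 and the inhibitor Cish had differences of -1.18 and -0.84. Stat3 itself averaged 54.6 and 116 TPM, and the leukemia inhibitory factor receptor Lifr was detected in 13 mutant and 63 wild-type cells. Of 28 measured JAK-STAT genes 20 were lower, with a median of -0.18. The share higher was 28.6%, against 57.6% over all genes. Socs3 averaged 88.4 TPM in mutant, 618 TPM in wild-type P56 and 67.6 TPM in wild-type P30 cells, and on the log2 scale mutant minus P30 was -0.08. Lifr was detected in 22.6% of P30 cells. Against the P30 plate 17 of the 28 JAK-STAT genes were higher in mutant cells, with a median of 0.01.

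The promoter of Socs3 is shown for the STAT site known from it. It is the 250 bases before the start at chr11:117969367-117969616 (RefSeq, GRCm38.p6, minus strand), 5′ to 3′, with the letters TTCNNNGAA in capitals.
Socs3: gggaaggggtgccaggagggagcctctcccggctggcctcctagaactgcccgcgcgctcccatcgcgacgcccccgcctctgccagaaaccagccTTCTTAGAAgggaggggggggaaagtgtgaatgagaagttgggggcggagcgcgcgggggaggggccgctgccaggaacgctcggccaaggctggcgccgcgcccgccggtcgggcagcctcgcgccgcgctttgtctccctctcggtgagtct
These letters were held on either strand by 4 of 36 leading lower genes (Socs3, Icam1, Irf1 and Tsc22d1, 11.1%), 2 of 35 leading higher genes (5.71%) 6.93% of the measured genes and 7.02% of all promoters.

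NF-kappaB genes showed a like pattern. Icam1, an adhesion molecule for leukocytes, averaged 73.6 TPM on the mutant plate and 419 TPM on the wild-type plate, and Nfkbiz was detected in 23.6% and 78.3%. The interferon-induced factor Irf1 was detected in 17 mutant and 62 wild-type cells, and the membrane protein Ifitm3 averaged 438 and 1338 TPM. Of 20 measured NF-kappaB genes 17 were lower, with a median of -0.11, and Tnfrsf1a was the main exception at 0.54. The share higher was 15%, against 57.6% over all genes. The inhibitor Nfkbia, which NF-kappaB induces to end its own signal, has the motif close to its start at chr12:55492648-55492897 (RefSeq, GRCm38.p6, minus strand), shown here with the NF-kappaB motif in capitals.
Nfkbia: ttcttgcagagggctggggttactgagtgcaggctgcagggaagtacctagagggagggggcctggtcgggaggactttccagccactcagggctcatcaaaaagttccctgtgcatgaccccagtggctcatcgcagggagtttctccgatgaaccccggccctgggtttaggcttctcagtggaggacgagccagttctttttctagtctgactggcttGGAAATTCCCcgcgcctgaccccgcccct
The motif was held on either strand by 8 of 36 leading lower genes (22.2%), 5 of 35 leading higher genes (14.3%) 10.8% of the measured genes and 7.25% of all promoters. The AP-1 letters TGANTCA were held by 6 (16.7%), 2 (5.71%), 4.996% and 6.75%.

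Heat shock and stress genes were split within 1 list. Of 38 measured chaperones 21 were higher (55.3% against 57.6% of all genes) and 17 lower, with a median of 0.04. Of the 38, 5 were lower by 1 or more and none higher, beside 0.979% and 0.622% of all genes. The small heat shock protein Hspb8 was detected in 23 mutant and 80 wild-type cells, a difference of -1.82, and Dnajb1, Hspa1b, Hspb1 and Hsp90aa1 had differences of -1.50, -1.26, -1.25 and -1.01. Hspa1b reached 110.0 TPM in mutant cells and 2544 TPM in wild-type cells, 44 of which exceeded every mutant cell. The small chaperone Cryab was higher by 0.75. At P30 wild-type Hspb1 averaged 7861 TPM, above both P56 plates. The promoter of Hspa1b, at chr17:34959239-34959488 (RefSeq, GRCm38.p6, minus strand), carries a heat shock element, with the letters GAANNTTC in capitals.
Hspa1b: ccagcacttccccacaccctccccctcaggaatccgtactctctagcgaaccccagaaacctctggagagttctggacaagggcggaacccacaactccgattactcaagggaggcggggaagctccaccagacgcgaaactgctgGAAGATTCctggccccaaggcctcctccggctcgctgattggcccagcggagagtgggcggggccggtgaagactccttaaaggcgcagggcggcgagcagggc
The letters were held by 2 of 36 leading lower genes (5.56%), 2 of 35 leading higher genes (5.71%) 5.91% of the measured genes and 6.69% of all promoters.

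Genes of the circadian clock were mostly lower. Nr1d1, the clock repressor REV-ERB alpha, was detected in 30.3% of cells on the mutant plate and 84.3% on the wild-type plate with a difference of -1.03, and Bhlhe40, Nfil3 and Dbp had differences of -0.85, -0.54 and -0.43. Of 19 measured clock genes 17 were lower, with a median of -0.13, and 10.5% were higher, against 57.6% over all genes. Nr1d1 stood at 39.2 TPM at P30, near the mutant 44.99 TPM and below the P56 wild type at 194 TPM. The hour at which each plate's skin was taken was not found in the labels, and its part was not tested.

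Surface and barrier proteins of keratinocytes were lower too. Annexins bind membranes in the presence of calcium, and Anxa8, Anxa1 and Anxa2 had differences of -2.34, -1.53 and -1.39. Anxa8 was detected in 17 mutant and 73 wild-type cells, but in the mutant cells that had it the level reached 5137 TPM, near the wild-type maximum of 5817 TPM. Anxa3 was the exception, detected in 46 mutant cells and 1 wild-type cell. Of 17 measured annexins and S100 proteins 13 were lower, with a median of -0.44. Of 12 desmosome genes 11 were lower by up to 0.63 (Jup), with a median of -0.15. The shares higher in these 2 lists were 23.5% and 8.33%, against 57.6% over all genes. The scaffold protein of caveolae, Cav1, averaged 59.9 and 404 TPM, and the growth factor Ptn 23.6 and 255.5 TPM. Gpha2, a glycoprotein hormone subunit, was detected in 6 mutant, 42 wild-type P56 and 9.52% of P30 cells.

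Most of this lower side moved with the immediate early genes, the rapid transcripts of stress and growth factor signals whose list was 14 of 27 lower by 1 or more. Their mean on the log2 scale had a median of 0.34 in mutant cells and 2.14 in wild-type cells, and 68 mutant but 5 wild-type cells lay under 0.5. Over the 89 mutant cells each of the 40 leading lower genes correlated positively with that mean (median rho 0.43), and 35 of 40 did so over the 83 wild-type cells (median rho 0.27). When 25 cells of each plate were matched on the mean, 21 of the 40 leading lower genes were still lower, 13 genes in all were lower by 1 or more, and the JAK-STAT, NF-kappaB, clock, desmosome and annexin medians were 0.03, 0.04, 0.04, 0.12 and 0.27. Those that were lower by 1 or more in the matched cells included Crip1 (-2.94), Cav1 (-1.62), Ptn (-1.52) and Gpha2 (-1.33). Matching also changed which mutant cells were compared, since 76 mutant and 16 wild-type cells had a mean under 1.5. Ly6d was among the leading lower genes that were higher in the matched cells. The part of this choice of cells in the shifts was not tested. In cells without Ly6a or Ly6d, 68 mutant and 30 wild-type, 37 of the 40 were lower, and Socs3 and Cav1 stood at -2.32 and -1.98, while Ccl27a and Clca3a2 stood at 0.94 and -0.0002.

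The higher side kept its direction, though these genes had been ranked by the same difference in the same cells, which in part set that outcome. All 40 leading higher genes were higher in mutant cells under each of 14 alternatives, including both of those selections of cells. Their median difference was 1.31 over all cells, 0.72 among the matched cells and 1.57 in cells without Ly6a or Ly6d. The size among matched cells was smaller, and 7 of the 40 kept a difference of 1 or more. Over the mutant cells each of the 40 had a negative rho with the immediate early mean, from -0.06 (Dbi) to -0.43 (Ucp2).

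Single mutant cells were then compared with the whole wild-type plate. For the 20 leading higher genes, a mutant cell exceeded every wild-type cell in 0 to 17 genes, with a median of 11, and 52 of 89 cells did so in 10 or more. There were 11 mutant cells that exceeded the wild-type plate in none. Their immediate early means ran from 0.40 to 2.97 with a median of 2.48, inside the wild-type range of 0.27 to 3.06, and 10 of the 11 had Ly6a or Ly6d and 1 had Cd34. These genes were chosen for their higher mutant mean, and exceeding no wild-type cell does not mean that a transcript was absent. Over all mutant cells the number of such genes and the immediate early mean had a rho of -0.33, and the number of such genes had a rho of -0.004 with the genes detected per cell.

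**Figure D5:**
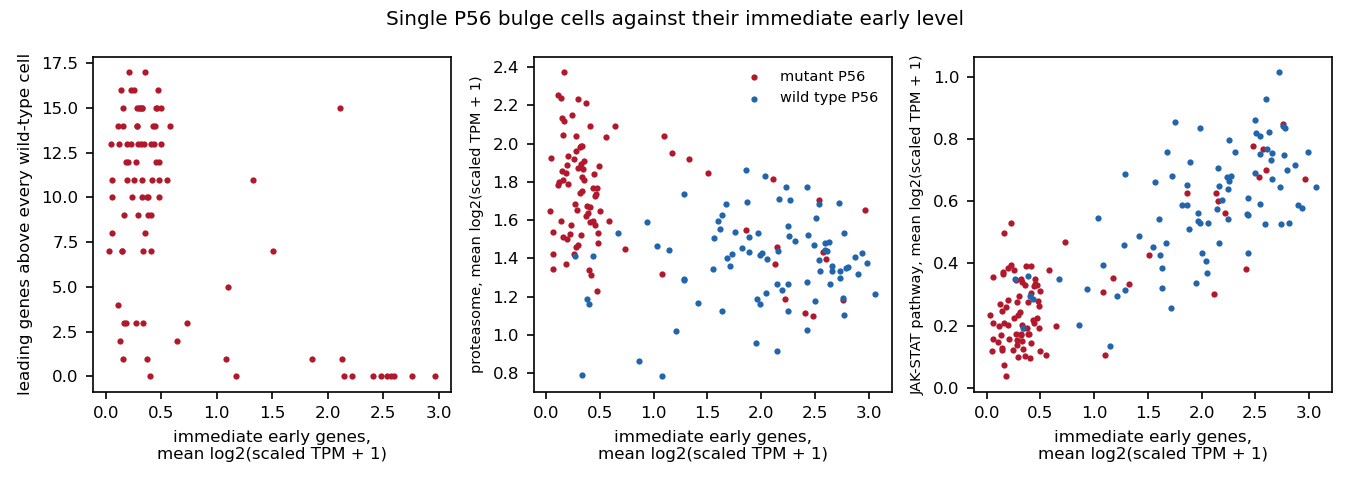
Single P56 cells by the mean of the immediate early list (horizontal, log2 scale), mutant in red and wild type in blue. Left, number of the 20 leading higher genes in which a mutant cell exceeded every wild-type cell, middle, mean of 34 proteasome genes, and right, mean of 28 JAK-STAT genes. Mutant cells that exceeded every wild-type cell in 0 genes lay mostly to the right of the left panel, where cells with 5, 7, 11 and 15 such genes are also seen.

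Some genes were detected on 1 of the P56 plates only. Of the 7561 genes measured, 20 were detected in at least 25% of mutant cells and in 0 of 83 wild-type P56 cells. Beyond Fgf5, Ggt1 and Acta2 they included the hormone Stc1, detected in 36 mutant cells, the phosphatase Alpl in 25, and the WNT receptor Fzd4 in 35.96% of mutant cells, named here after their values were seen. Stc1 and Alpl were at 0 in every P30 cell as well, while Cmah, Pi15 and Fam26e, also among the 20, were detected in 29.8%, 25% and 17.9% of P30 cells. In the other direction 5 genes were detected in at least 25% of wild-type P56 cells and in no mutant cell, which allows up to 3.37%, among them Foxi3 and Rtn4rl1, both at 0 in the P30 plate. Serpina3i, a protease inhibitor from a family of near-identical copies, was detected in 5 mutant and 65 wild-type cells, and its value is uncertain for that reason.

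For most leading genes the P30 plate lay on the wild-type side of the mutant cells. Mutant cells lay beyond both wild-type plates, by any amount, for 38 of the 40 leading higher genes and 37 of the 40 leading lower genes. The genes were chosen for their distance from the wild-type P56 plate, so lying beyond that plate was set by the choice. No share over all genes is given. The P30 mean lay between the P56 means for 25 higher and 24 lower genes, and on the far side of wild-type P56 for 13 of each. Over the 40 lower genes mutant minus P30 ran from -2.78 (Krt14) to 0.41 (Sertad1). Some of those counted were level with P30, at -0.004 for Rasgef1b, -0.006 for Crip1, -0.05 for Ptn, -0.06 for Gpha2 and -0.08 for Socs3. The exceptions among the higher genes were Atp1b3, at 1221 TPM at P30 and 1184 TPM in mutant cells, and Dbi, at 2191 and 1077 TPM. Among the lower genes they were Icam1, Htra1 and Sertad1, for which the P30 mean lay below that of the mutant cells on the log2 scale. The P30 and P56 comparisons share the mutant cells, so this is given as a position and not as a repeat.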

How the data were processed

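Expression was measured in single sorted bulge cells from dorsal skin of mutant and wild-type mice, 1 plate of wells per group. Per the study's methods, cDNA was made on Fluidigm C1 chips with a SMARTer kit, and per the submitters' processing notes reads were aligned with STAR 2.4.2 to mm10 (GRCm38). The authors deposited TPM values per gene and cell, from which read depth and unique molecules cannot be recovered, and depth per cell is therefore given as genes above 0. Melanocyte and myeloid plates were not used here.

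Values were computed in Python 3.11.15 with pandas 2.3.3, NumPy 2.4.6 and SciPy 1.17.1, and drawn with matplotlib 3.10.9. Rows sharing a symbol were averaged (31002 identifiers, 30957 symbols). Cells outside the limits were left out, 5 mutant and 9 wild-type at P56 and 7 at P30. TPM was divided by the cell's total, multiplied by 10000 and log2-transformed with a pseudocount of 1, and the arithmetic was tested on simulated data. Wells with more than 1 cell were excluded by the authors under the microscope, and no doublet caller was run. Genes detected (TPM of 1 or more) in at least 25% of cells of either P56 plate were measured.

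Named genes were the 40 largest differences each way, the 20 largest differences in share detected each way, up to 8 members per list and all genes of the osteopontin and CD44 list, leaving out pseudogenes, predicted, sex-linked, ribosomal protein and mitochondrial genes and 4 lists set aside (connexins, immediate early, quiescence and cell cycle genes), and the 5 genes most like Gnmt. Bulge and plate markers and genes detected on 1 of the P56 plates only were added after the values were seen. Some leading genes are not reported here. The members and the 65 gene lists were chosen with earlier results of these data known. Groups of cells were matched on immediate early genes in bins of 0.5. Promoter windows are RefSeq's, GRCm38.p6, and 8 motifs were searched on both strands. The CRE and E-box motifs were in 0 and 2 of the 36 leading lower and 0 and 3 of the 35 leading higher genes with a promoter.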

Additional observations from a re-analysis of the deposited data

How the results depend on the processing

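There were 12 alternatives planned and 2 chosen after seeing the data, cells with an immediate early mean under 1.5 and cells without Ly6a or Ly6d. All 40 leading higher genes were higher under each of the 14, and all 40 leading lower genes lower under 11. Both sets had been ranked by the same difference in the same cells. With 1 plate per genotype no alternative repeats the comparison, leaving out a replicate was not possible, and depth is unknown. No paired analysis was possible because no comparison came from a test and each genotype had 1 plate. Filters on low values could not move single genes, and the difference of medians was run for single genes and counts. The cause of the shifts below was not tested.

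With a pseudocount of 0.1, 371 genes were higher and 307 lower by 1 or more (54.7% of them higher, against 38.8%), and medians were 0.39 for amino acid transporters, 0.54 for one-carbon genes, 0.39 for matrix, -0.39 for desmosome, 0.50 for actin, -0.41 for NF-kappaB, -0.56 for JAK-STAT, -0.62 for MHC class I, 0.67 for proteasome and -0.46 for clock genes. With genes in at least 10% of cells the amino acid and JAK-STAT medians were 0.0018 and -0.0652. With all genes they were 0.0017 and -0.0323, annexins stood at -0.0327 and keratins at 0.0044. Without cells holding 20 or more G2/M genes the amino acid median was 0.26 and that of chaperones -0.10.

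Among cells matched on immediate early genes, 29 genes were higher and 13 lower by 1 or more (69.05% higher). Medians were -0.0241 for matrix, 0.0717 for respiratory chain and 0.15 for proteasome, and the direction turned for desmosome (0.12), annexins (0.27), outer bulge (-0.0948), interfollicular (0.43), NF-kappaB (0.0449), cytokine (0.0654), JAK-STAT (0.0283), MHC class I (0.12), glycolysis (0.0613), cholesterol (0.0859), clock (0.0374) and antimicrobial genes (0.0823). Single genes that turned included Nfkbia (0.50), Anxa8 (0.48), Lgals3 (0.49), Ly6d (0.90), Fam25c (0.85), Anxa1 (0.73), Ccl27a (1.06), Anxa2 (0.44), Cdkn1a (0.51), Clca3a2 (0.73), Hspb1 (0.26), Pim3 (0.0849), Fcgbp (0.39), Sat1 (0.76), Ifrd1 (0.84), Sertad1 (0.25) and Ndufa4l2 (0.34).

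Cells with an immediate early mean under 1.5 were 76 mutant and 16 wild-type, so the wild-type means rested on few cells. Between these cells 75 genes were higher and 38 lower by 1 or more (66.4% higher). Medians were -0.0188 for matrix, -0.20 for annexins, -0.0201 for JAK-STAT, 0.11 for MHC class I and -0.0238 for clock genes. Tsc22d1 and Ifrd1 stood at 0.14 and 0.33. In cells without Ly6a or Ly6d, 78 genes were higher by 1 or more, with medians of 0.27 for one-carbon, 0.0157 for desmosome, -0.11 for annexins, -0.13 for outer bulge, 0.19 for MHC class I and 0.0934 for antimicrobial genes, and Ccl27a at 0.94.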
